A study of Mus musculus with 16 samples.

Results

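The stromal collagens other than type I were measured in single cells of tumors from 2 mouse models of breast cancer of the triple-negative kind. They were 10 genes of the 19822 in the joined count table, all of which were detected: the fibril-forming Col3a1, Col5a1, Col5a2 and Col5a3, the beaded-filament Col6a1, Col6a2 and Col6a3, the network-forming Col8a1, and the fibril-associated Col12a1 and Col14a1. The genes were listed by their collagen type, and the list was made with earlier results of these data known. Their levels were followed across the cell classes of the tumors, across the 2 models, and across 2 subsets of fibroblast-like cells that are set apart by the contractile genes Acta2 and Tagln or by Clec3b and Pi16.

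Collagens are secreted as helical assemblies of chains, and each type has its own place in the matrix of a tissue. Type III forms fibrils together with type I in soft tissues, and type V lies within such fibrils, where it is known to start their assembly and to limit their width. Type VI forms fine beaded filaments close to cells, type VIII forms short-chain networks best known from vessel walls and the cornea, and types XII and XIV are short-helix collagens that sit on the surface of fibrils. Fibroblasts are the main source of most of these chains in the mammary gland, and pericytes, endothelial cells and nerve-associated cells make some of them.

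Single cells of end-stage mammary tumors were profiled by Drop-seq, a droplet method that counts unique molecular identifiers (UMIs) at the 3′ end of transcripts. The WB1P tumors had the genotype WapCre;Brca1F/F;Trp53F/F and the WB1P-Myc tumors WapCre;Brca1F/F;Trp53F/F;Myc, and neither received a treatment. In both models Cre is driven by the Wap promoter, which is active in mammary epithelium, so that Brca1 and Trp53 are deleted in epithelial cells, and the Myc allele of WB1P-Myc, written Col1a1invCAG-Myc-IRES-Luc in full, places Myc and a luciferase reporter in the Col1a1 locus, for which reason Col1a2 and not Col1a1 served as the type I scale. Live single cells were sorted without a gate on cell type, and 4 droplet fractions per model were sequenced. No fraction was tied to a mouse, so each model was treated as 1 sample and no test between models or cell groups was made. No fraction held cells of both models, so that model and droplet collection cannot be told apart. Levels are given as CPM, the UMIs of a gene per 1000000 UMIs of the cells. Intervals are 95% intervals that cover counting error only, and ± SD is over fractions and not over mice.

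After barcodes with 450 to 4000 genes and under 20% mitochondrial UMIs were kept, 1307 WB1P and 3491 WB1P-Myc cells remained. The fractions held 256985 to 1918672 UMIs in WB1P and 3814562 to 4960334 in WB1P-Myc. WB1P fraction 1 stood apart, with 65 kept cells, 2 of them fibroblast-like, and 21 of the 48 doublets that were called in all cells. One barcode occurred in more than 1 library. Clusters were named from marker lists without collagen genes and gave 1709 epithelial-like, 1181 Schwann-like, 1080 macrophage-like, 469 fibroblast-like and 111 endothelial-like cells. A further 248 cells, all from WB1P-Myc, stayed unnamed, and 1179 of the Schwann-like cells came from WB1P-Myc. The fibroblast-like cells, 214 in WB1P and 255 in WB1P-Myc, carried all 14 fibroblast markers. Collagen genes, and so all members, were also left out of the genes that the clustering used. With each model taken as 1 sample, levels by class are still a description.

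In the mouse genome (mm10, GENCODE M21), several members lie side by side. Col3a1 (chromosome 1, 45311538 to 45349706, plus strand) and Col5a2 (chromosome 1, 45374321 to 45503282, minus strand) are 24614 bases apart, and Col6a2 (chromosome 10, 76595762 to 76623630) and Col6a1 (chromosome 10, 76708792 to 76726168), both on the minus strand, are 85161 bases apart. The other members lie alone among the 10: Col6a3 on chromosome 1 (90765923 to 90843971, minus strand), Col5a1 on chromosome 2 (27886425 to 28039514, plus strand), Col5a3 on chromosome 9 (20770050 to 20815067, minus strand), Col12a1 on chromosome 9 (79598991 to 79718831, minus strand), Col14a1 on chromosome 15 (55307750 to 55520803, plus strand) and Col8a1 on chromosome 16 (57624258 to 57754737, minus strand). Promoter windows from RefSeq (GRCm38.p6), which run from 250 bases before to 50 bases after a transcript's start, matched 7 of the 10 members, with 8 windows. Those of Col3a1 and Col8a1, whose levels parted the fibroblast-like subsets in opposite directions, and of the neighbours Col6a1 and Col6a2, which did not pass 2-fold between them, are given here 5′ to 3′ on the strand of the gene, with motif matches in capitals.
Col3a1, chr1:45311288-45311587, plus strand: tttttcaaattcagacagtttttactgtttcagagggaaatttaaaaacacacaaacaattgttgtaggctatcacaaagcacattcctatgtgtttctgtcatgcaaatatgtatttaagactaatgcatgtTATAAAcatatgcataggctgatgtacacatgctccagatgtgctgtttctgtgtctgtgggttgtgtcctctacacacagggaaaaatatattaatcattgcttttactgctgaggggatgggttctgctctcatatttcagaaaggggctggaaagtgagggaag
Col8a1, chr16:57754688-57754987, minus strand: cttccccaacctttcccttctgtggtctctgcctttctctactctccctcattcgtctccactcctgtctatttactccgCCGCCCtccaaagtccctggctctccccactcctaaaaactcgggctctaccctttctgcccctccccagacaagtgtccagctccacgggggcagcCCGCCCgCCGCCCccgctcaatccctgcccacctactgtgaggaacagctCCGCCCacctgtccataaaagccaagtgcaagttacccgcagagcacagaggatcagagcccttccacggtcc
Col6a1, chr10:76725995-76726294, minus strand: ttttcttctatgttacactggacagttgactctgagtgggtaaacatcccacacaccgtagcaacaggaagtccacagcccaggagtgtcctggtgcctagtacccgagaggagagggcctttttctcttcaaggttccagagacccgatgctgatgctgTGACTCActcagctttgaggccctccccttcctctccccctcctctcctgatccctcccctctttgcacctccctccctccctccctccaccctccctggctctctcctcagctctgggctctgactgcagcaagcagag
Col6a2, chr10:76623355-76623654, minus strand: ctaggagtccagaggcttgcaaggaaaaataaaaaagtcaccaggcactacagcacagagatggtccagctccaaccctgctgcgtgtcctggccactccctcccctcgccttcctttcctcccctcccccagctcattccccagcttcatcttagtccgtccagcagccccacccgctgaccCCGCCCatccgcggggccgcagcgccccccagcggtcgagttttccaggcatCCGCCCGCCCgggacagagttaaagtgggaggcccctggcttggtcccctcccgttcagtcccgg
On both strands, 4 motifs were searched: TATAAA (the TATA box), TGANTCA (the AP-1 site), CCAAT and GGGCGG (the GC box). Col3a1 had TATAAA 117 bases before its start, a motif held by 13.6% of all 32851 promoter windows. Col6a1 had TGANTCA 90 bases before its start, a motif held by 7.81% of windows. Col8a1 held GGGCGG on the reverse strand at 4 places and the printed Col6a2 window at 3, of which 2 overlap, and 35.7% of windows held it at least once. Col6a2 had a second window, not printed here, with 1 such match 175 bases before its start. These matches are descriptions of the letters and not of binding.

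All 10 members were far higher in fibroblast-like cells than in all other cells together, by 17.8-fold for Col5a3 to 99.6-fold for Col12a1. They made up 1.92% of the UMIs of fibroblast-like cells and 0.0388% of those of other cells, against 2.87% of fibroblast-like UMIs for the type I genes Col1a1 and Col1a2. Among genes with at least 50 UMIs over both groups, 13.1% were at least 2-fold higher in fibroblast-like cells, and 10 of the 10 members were. The median log2 ratio was 5.03 over the members and -0.37 over all such genes. A fibroblast-like cell held UMIs of 7 of the 10 members at the median, or 4 after each cell was thinned to 600 UMIs, and a macrophage-like cell of 0.

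**Figure D1:**
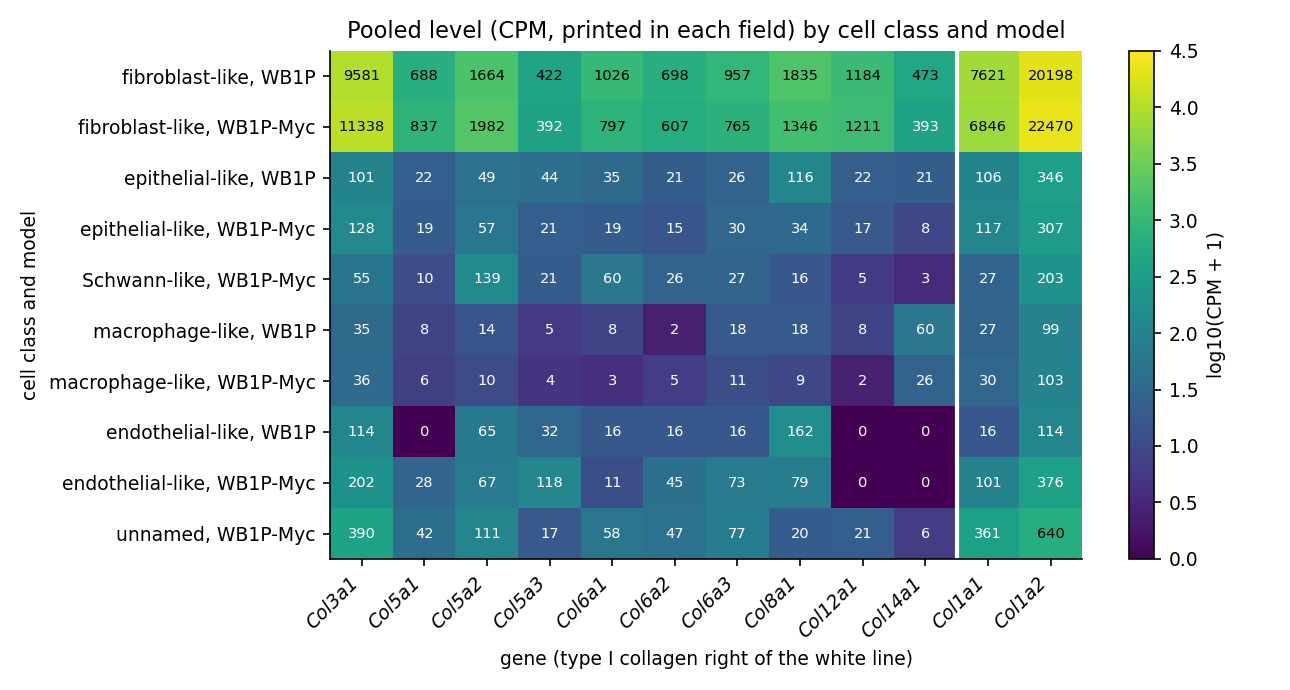
Pooled level of each collagen gene (horizontal axis) in each cell class and model (vertical axis), with the CPM printed in each field and the colour showing log10(CPM + 1). The type I genes stand to the right of the white line. Every member is highest in fibroblast-like cells in both models, and the endothelial-like cells hold no UMI of Col12a1 or Col14a1.

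Among the fibril-forming chains, Col3a1, the single chain of type III, stood at 10668 CPM in fibroblast-like cells (10504 to 10833) and at 114 CPM in other cells. The type V chains Col5a1, Col5a2 and Col5a3 stood at 780.1, 1861 and 404 CPM in fibroblast-like cells and at 17.1, 83.2 and 22.7 CPM in other cells. Because reads were counted at 3′ ends, these levels are compared between cells for 1 gene and not between genes. Col5a2 and Col5a3 had the lowest ratios over other cells of the 10, with log2 values of 4.48 (4.38 to 4.58) and 4.15 (3.96 to 4.36), and Col3a1 had one of the highest, with 6.55 (6.47 to 6.63).

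The beaded-filament chains Col6a1, Col6a2 and Col6a3 stood at 884, 642 and 838 CPM in fibroblast-like cells and at 37.6, 21.6 and 31.4 CPM in other cells. Their log2 ratios lay close together, at 4.56 (4.41 to 4.70), 4.89 (4.70 to 5.08) and 4.74 (4.58 to 4.90). Col8a1 stood at 1533 CPM against 36.3 CPM, a log2 ratio of 5.40 (5.26 to 5.54). Of the fibril-associated chains, Col12a1 stood at 1201 CPM against 12.1 CPM, a log2 ratio of 6.64 (6.41 to 6.88), and Col14a1 at 424 CPM against 11.8 CPM, a log2 ratio of 5.17 (4.92 to 5.43). When the macrophage-like level of each model was taken off as free RNA, nothing remained of Col14a1 in other cells, and its ratio was at least 10.79 with the floor set at 3 counts. The macrophage-like level taken off was itself 25.9-fold in WB1P and 14.2-fold in WB1P-Myc over the level scaled from Col1a2, a measure described further on. Without that subtraction, the ratios of Col12a1 and Col3a1 were above that of the type I chain Col1a2, 6.26 (6.21 to 6.31), and those of the other 8 members below it.

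Each member was also at least 2-fold higher in fibroblast-like cells than in each other class taken alone, where the share of all genes past that fold was 16.0% against epithelial-like, 16.8% against Schwann-like, 16.2% against macrophage-like, 17.7% against endothelial-like and 25.2% against unnamed cells. The smallest of these differences was that of Col5a3 over endothelial-like cells, at 404 against 95.9 CPM (log2 2.07). Over macrophage-like cells the smallest was that of Col14a1, at 424 against 37.4 CPM (log2 3.50). Endothelial-like cells held 0 UMIs of Col12a1 and Col14a1 in both models and 0 of Col5a1 in WB1P.

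The share of fibroblast-like cells with at least 1 UMI ran from 43.1% for Col14a1 (38.5 to 47.7%) to 95.9% for Col3a1 (93.8 to 97.5%), with a median of 2551 UMIs per cell. Macrophage-like cells held a UMI of Col3a1, a fibrillar collagen they are not known to make, in 6.30% of cells, with a median of 1480.5 UMIs per cell. They held one of the fibril-associated Col14a1 in 5.00%, which is set beside it for comparison and not taken as a background level. After thinning to 600 UMIs the shares in fibroblast-like cells were 20.7% for Col14a1 and 89.6% for Col3a1, and those in macrophage-like cells 1.85% and 2.69%. All 10 members lay above this macrophage-like share in fibroblast-like cells, with or without thinning.

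Within the fibroblast-like class no member differed by 2-fold between the models. The share of all genes whose fractions overlap between the models was not computed, so overlap is described gene by gene. Col3a1 stood at 8760, 9524, 10226 and 8839 CPM in WB1P fractions 1 to 4 and at 12070, 11036, 12294 and 9913 CPM in the WB1P-Myc fractions. The ranges of the models overlapped, and the means over fractions were 9338 ± 685 CPM in WB1P and 11328 ± 1091 CPM in WB1P-Myc (SD, n = 4 fractions each). Pooled over fractions, the log2 ratio of WB1P-Myc over WB1P was 0.24 (0.20 to 0.29).

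Col8a1 stood at 2358, 1921, 1789 and 1785 CPM in the WB1P fractions and at 1358, 1387, 1349 and 1282 CPM in the WB1P-Myc fractions. Every WB1P fraction lay above every WB1P-Myc fraction, the log2 ratio was -0.45 (-0.57 to -0.33), and this was the largest difference between models of the 10 members. In the shallower MiSeq run of the same libraries the ratio had the opposite sign, at 0.91. That run gave no endothelial-like cluster, and its 153 fibroblast-like cells carried 8 endothelial markers, against 1 in the fibroblast-like class here. The part of this in the sign was not tested. Col6a1 stood at 674, 1030, 1056 and 991 CPM in WB1P, and at 783, 848, 714 and 843 CPM in WB1P-Myc. WB1P fraction 1, with its 2 fibroblast-like cells, lay below every WB1P-Myc fraction for this gene and the other WB1P fractions lay above them. Col6a3 stood at 1685, 1066, 906 and 883 CPM in WB1P and at 870.0, 691, 738 and 775 CPM in WB1P-Myc, and its fractions did not overlap either.

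The remaining members overlapped between the models. Col5a1 ran from 337 to 747 CPM over the WB1P fractions and from 698 to 934 CPM over the WB1P-Myc fractions. Col5a2 ran from 1468 to 2695 CPM and from 1727 to 2316 CPM. For both genes the extreme WB1P value was that of fraction 1, and the other WB1P fractions of Col5a2 lay between 1468 and 1768 CPM. Col5a3 ran from 337 to 425 CPM and from 303 to 519.6 CPM. Col6a2 ran from 667 to 1685 CPM and from 484 to 709 CPM, or from 667 to 722 CPM in WB1P without fraction 1. Col12a1, which had the same mean level in both models to within its spread, ran from 1011 to 1337 CPM and from 962 to 1395 CPM. Col14a1 ran from 406 to 1011 CPM and from 367 to 442 CPM, the highest WB1P value again being that of fraction 1.

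**Figure D2:**
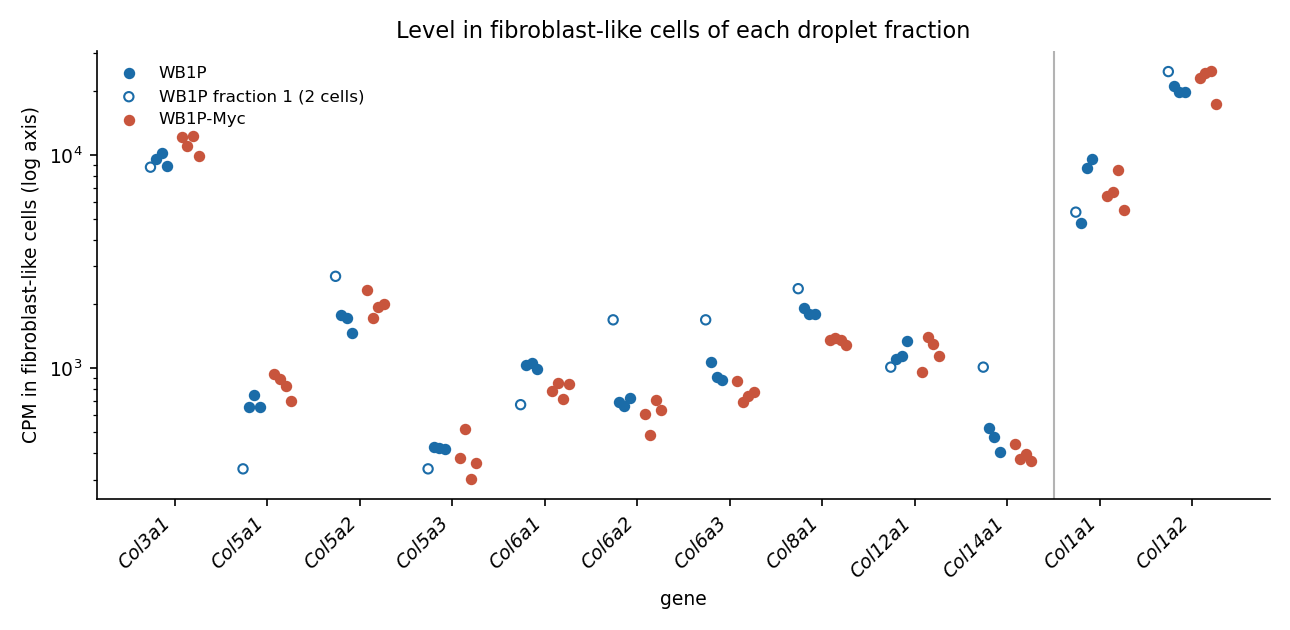
Level of each member in fibroblast-like cells (CPM, log axis) in each of the 4 droplet fractions of WB1P and WB1P-Myc, 1 point per fraction, with the type I genes to the right of the line. Open circles are WB1P fraction 1. The fractions of the models part for Col8a1 and Col6a3, and for Col6a1 only when WB1P fraction 1 is set aside. That fraction, which rests on 2 cells, also lies apart for Col6a2. The share of all genes whose fractions part was not computed.

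Over the pooled fibroblast-like cells 0 of the 10 members were past 2-fold between the models, where 4.46% of all genes were. The range ran from the log2 ratio of Col8a1 above to 0.28 (0.11 to 0.46) for Col5a1, and the median was -0.15 over members and 0.06 over all genes. Col5a1, Col5a2 and Col3a1 were slightly higher in WB1P-Myc, and Col6a1, Col6a3 and Col14a1 slightly higher in WB1P, at -0.37 (-0.52 to -0.21), -0.32 (-0.49 to -0.16) and -0.27 (-0.50 to -0.04). In the MiSeq run the sign was the opposite for Col5a1 (-0.28) and Col6a3 (0.19), as it was for Col8a1. Col12a1 stood at 1184 CPM in WB1P and 1211 CPM in WB1P-Myc, a log2 ratio of 0.03 (-0.10 to 0.17). Fibroblast-like cells were 16.4% of WB1P and 7.30% of WB1P-Myc cells, so collagen per tumor cannot be read from these levels.

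The fibroblast-like cells were next split by the sum of Acta2 and Tagln UMIs against the sum of Clec3b and Pi16 UMIs. Acta2 encodes smooth muscle actin and Tagln an actin-binding protein, both of contractile cells, whereas Clec3b and Pi16 mark resting or adventitial fibroblasts. This gave 237 Acta2/Tagln cells (104 in WB1P and 133 in WB1P-Myc), 130 Clec3b/Pi16 cells (56 and 74) and 102 cells with equal sums (54 and 48), of which 95 had no UMI of the 4 genes. In 65 cells the sums differed by 1 UMI, and 30 cells held UMIs of both pairs. No collagen gene took part in this split.

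Some members passed 2-fold between the subsets, in both directions, and neither type I gene did. Col8a1 and Col12a1 were at least 2-fold higher in Acta2/Tagln cells, Col14a1 and Col3a1 at least 2-fold higher in Clec3b/Pi16 cells, and the 6 chains of types V and VI lay between. Of all genes, 11.6% were at least 2-fold higher in Acta2/Tagln cells and 7.83% in Clec3b/Pi16 cells, against 2 and 2 of the 10 members. With 10 members, these counts were not told apart from that background, and the values describe the members one by one. The median log2 ratio was 0.38 over the members and 0.21 over all genes, and it was -0.15 (-0.18 to -0.11) for Col1a2. The members summed to 1.69% of the UMIs of Acta2/Tagln cells and to 2.44% of those of Clec3b/Pi16 cells. Col3a1 alone gave 6505 of the 15187 member UMIs in Acta2/Tagln cells and 6693 of the 9262 in Clec3b/Pi16 cells. The summed shares therefore follow Col3a1 and do not describe the members as a group.

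**Figure D3:**
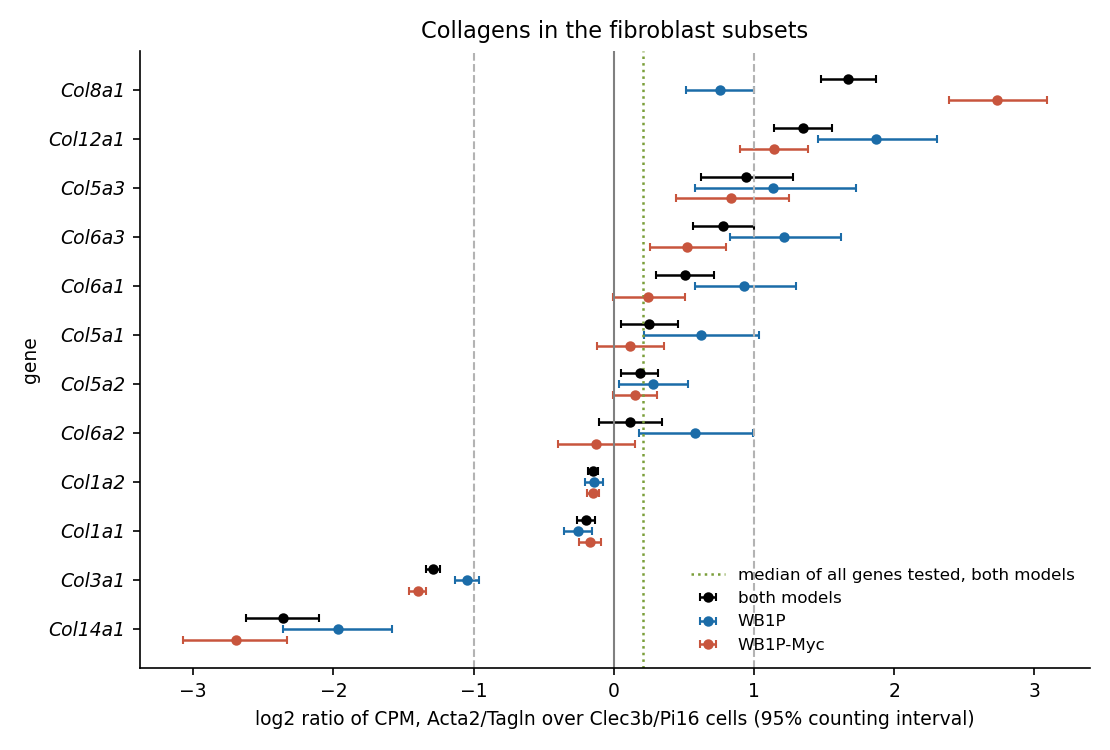
Log2 ratio of Acta2/Tagln over Clec3b/Pi16 cells for each member and for Col1a1 and Col1a2, for both models together and for each model, with 95% counting intervals as bars, dashed lines at 2-fold and a dotted line at the median of all genes with at least 50 UMIs. Col8a1 and Col12a1 lie to the right of 0, Col3a1 and Col14a1 to the left, and the models lie farthest apart for Col8a1.

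Col8a1, the network-forming chain, stood at 2083 CPM in Acta2/Tagln cells and 653 CPM in Clec3b/Pi16 cells, a 3.19-fold difference (log2 1.67, 1.48 to 1.87). In Acta2/Tagln cells its level was 4474 CPM in the 1 cell of WB1P fraction 1, then 2356, 2323 and 1783 CPM in WB1P fractions 2 to 4, and 2142, 1717, 2577 and 1798 CPM in WB1P-Myc. In Clec3b/Pi16 cells it was 1446 CPM in the 1 cell of WB1P fraction 1, then 1015, 1034 and 1634 CPM in WB1P, and 294, 694, 165 and 245 CPM in WB1P-Myc. The Acta2/Tagln cells were the higher in 8 of 8 fractions, by little in WB1P fraction 4 and by most in WB1P-Myc fraction 3. The log2 ratio was 2.73 within WB1P-Myc but 0.76 within WB1P, under 2-fold, and the ratios differed by 1.97 (1.56 to 2.39).

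Col12a1, the fibril-associated chain also known from tissues under tension, stood at 1502 CPM in Acta2/Tagln cells and 590.2 CPM in Clec3b/Pi16 cells (log2 1.35, 1.14 to 1.56). In Acta2/Tagln cells it was at 1119, 1460.0, 1434 and 1543 CPM in the WB1P fractions and at 1213, 1556, 1920.3 and 1418 CPM in the WB1P-Myc fractions. In Clec3b/Pi16 cells it was at 964, 677, 306 and 330.2 CPM in WB1P and at 771, 917, 626 and 489 CPM in WB1P-Myc. No fraction's Clec3b/Pi16 level reached the Acta2/Tagln level of any fraction. The log2 ratio was 1.87 in WB1P and 1.14 in WB1P-Myc. When subclusters of the fibroblast-like cells replaced the split by gene pairs, it was 0.76, under 2-fold.

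Col14a1, its fibril-associated relative, had the reverse pattern, at 196 CPM in Acta2/Tagln cells and 1009 CPM in Clec3b/Pi16 cells, 5.14-fold higher in the latter (log2 -2.36, -2.63 to -2.10). In Clec3b/Pi16 cells it was at 1428, 1339 and 792 CPM in WB1P fractions 2 to 4 and at 897, 1512, 725 and 1023 CPM in WB1P-Myc, and in Acta2/Tagln cells at 373, 273 and 160 CPM and at 189, 135, 126 and 145 CPM. The ranges did not overlap, and Clec3b/Pi16 cells were the higher in 7 of 7 fractions with UMIs in both subsets. WB1P fraction 1 had 0 UMIs in its 1 Acta2/Tagln cell and 3 in its 1 Clec3b/Pi16 cell. The log2 ratio was -1.97 in WB1P and -2.70 in WB1P-Myc. Read together, 100 UMIs of Col14a1 were matched by 764 UMIs of Col12a1 in Acta2/Tagln cells and by 58.5 in Clec3b/Pi16 cells, a log2 difference of 3.71 (3.37 to 4.05).

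Col3a1 stood at 7220.0 CPM in Acta2/Tagln cells and 17634 CPM in Clec3b/Pi16 cells, 2.44-fold higher in the latter (log2 -1.29, -1.34 to -1.24). In Clec3b/Pi16 cells it was at 14246, 17623 and 13223 CPM in WB1P fractions 2 to 4 and at 18842, 22556, 18059 and 18989 CPM in WB1P-Myc. In Acta2/Tagln cells it was at 7963, 7335 and 5295 CPM and at 7269, 8317, 7589 and 5677 CPM. These ranges did not overlap, whereas the single cells of WB1P fraction 1 lay the other way, at 17897 CPM for the Acta2/Tagln cell and 4822 CPM for the Clec3b/Pi16 cell. Against Col1a2, with which it shares fibrils, Col3a1 had 34.3 UMIs per 100 in Acta2/Tagln cells and 75.6 per 100 in Clec3b/Pi16 cells, a log2 difference of -1.14 (-1.20 to -1.08).

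**Figure D4:**
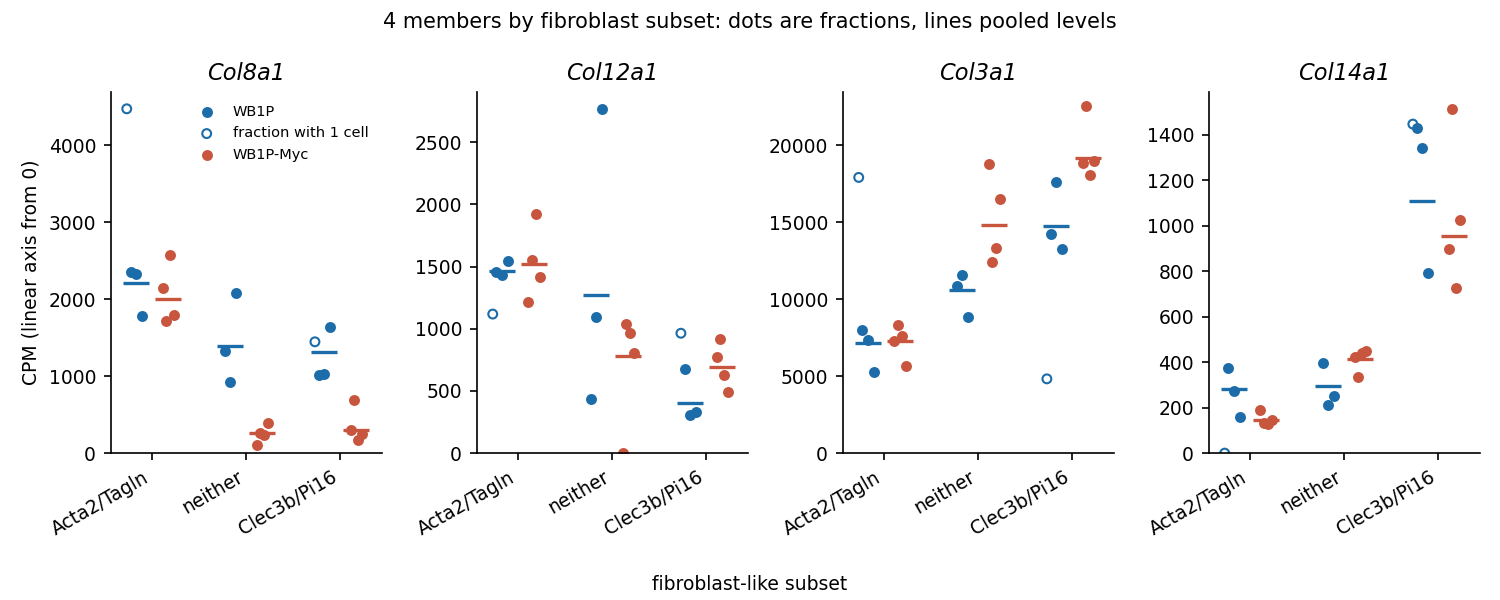
Level of Col8a1, Col12a1, Col3a1 and Col14a1 (CPM, linear axes from 0) in Acta2/Tagln cells, cells with equal sums (neither) and Clec3b/Pi16 cells, with 1 point per droplet fraction, open where the fraction had 1 cell, and lines for the pooled level of each model. Col14a1 separates the subsets in every fraction with a value, and Col8a1 is low in the Clec3b/Pi16 cells and those with equal sums of WB1P-Myc, between 106 and 694 CPM.

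The type V chains differed among themselves. Col5a3 stood at 492 CPM in Acta2/Tagln cells and 256 CPM in Clec3b/Pi16 cells (log2 0.94, 0.62 to 1.28), just under 2-fold, and was the higher in Acta2/Tagln cells in 7 of 7 fractions with a value. Col5a1 and Col5a2 had log2 ratios of 0.25 (0.05 to 0.46) and 0.18 (0.05 to 0.32), near the 0.21 of all genes. Col5a1 and Col5a2, the chains of the common type V form, kept almost the same balance, at 42.9 and 40.9 UMIs of Col5a1 per 100 of Col5a2 (log2 difference 0.07, -0.18 to 0.31). Col5a3 rose from 14.9 per 100 of Col5a2 in Clec3b/Pi16 cells to 25.2 per 100 in Acta2/Tagln cells (log2 difference 0.76, with a lower bound of 0.41).

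The type VI chains also differed in size of ratio. Col6a3 stood at 959 CPM in Acta2/Tagln cells and 559 CPM in Clec3b/Pi16 cells (log2 0.78, 0.56 to 1.00), Col6a1 at 953 and 672 CPM (log2 0.50, 0.30 to 0.71), and Col6a2 at 658 and 606 CPM (log2 0.12, -0.10 to 0.35). Within WB1P the ratio of Col6a3 passed 2-fold, at 1.22, as did that of Col5a3, at 1.13, and that of Col8a1 did not, so that 3 of 10 members were past 2-fold towards Acta2/Tagln cells there, against 17.7% of genes. Within WB1P-Myc 2 of 10 were, Col8a1 and Col12a1, against 10.9% of genes. All 3 type VI ratios were lower in WB1P-Myc than in WB1P, with differences of -0.68 (-1.11 to -0.26) for Col6a1, -0.70 (-1.18 to -0.23) for Col6a2 and -0.69 (-1.15 to -0.23) for Col6a3. For Col5a2 and Col5a3 the intervals of these differences held 0. The intervals rest on a normal approximation and count only UMIs of 1 sample per model. The share of all genes with such a difference was not computed, so the differences describe single members and not the members as a set.

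Cells with equal sums of the gene pairs lay between the subsets for 8 of the 10 members, the exceptions being Col5a1, lower there than in either subset, and Col6a1, higher by little than in either. Col3a1 stood there at 12625 CPM, Col12a1 at 1034 CPM and Col14a1 at 352 CPM. Of the members, only Col8a1 was at least 2-fold higher in Acta2/Tagln cells than in these cells (843 CPM, log2 1.30, 1.09 to 1.52), where 7.20% of genes were. Only Col14a1 was at least 2-fold higher in Clec3b/Pi16 cells than in them (log2 1.52, 1.17 to 1.88), where 5.53% of genes were.

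Markers of other cell types moved with the subsets. The 8 pericyte markers, all detected, summed to 1119 CPM in Acta2/Tagln cells, and 6 of 8 to 84.3 CPM in Clec3b/Pi16 cells. The 12 endothelial markers summed to 219.8 and 63.2 CPM, and the 11 macrophage markers in the table summed to 141 and 403 CPM. The 14 fibroblast markers summed to 9281 CPM in Acta2/Tagln cells and to 22435 CPM in Clec3b/Pi16 cells, and the median depth was 3118 UMIs per cell in the former and 2452 in the latter. The part of these cells in the collagen differences was not tested, other than by the following split.

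This split used the pericyte markers Rgs5, Kcnj8, Abcc9, Cspg4, Notch3 and Higd1b. Ndufa4l2 and Mcam, also on the list, took no part, so cells called without a pericyte marker could hold them. Among Acta2/Tagln cells, 115 held a UMI of a pericyte marker of the split and 122 did not. None of the 10 members differed by 2-fold between them, where 4.90% of genes did. Within WB1P, 1 of 10 was at least 2-fold lower with a pericyte marker, Col14a1 at 181 against 370 CPM (log2 -1.03), where 3.17% of genes were. That call rested on 1 cell without a pericyte marker, which gave 21 of 65 UMIs (32.3%), and without it the level was 267 CPM (log2 -0.56, -1.31 to 0.16), under 2-fold. With all cells in, the largest differences over both models were those of Col14a1, at 133 CPM with and 248 CPM without a pericyte marker (log2 -0.89, -1.38 to -0.42, or -0.66 without the same cell), and of Col5a3, at 606 and 399 CPM (log2 0.60, 0.33 to 0.88). When the cell with most UMIs of each member was left out, Col3a1 had the largest, at log2 -0.68 (-0.76 to -0.60). Col5a3 then stood at 0.49. Col8a1 stood at 2247 and 1950.2 CPM and Col12a1 at 1283 and 1680.3 CPM. With pericyte-marker cells left out of both subsets, the same 4 members passed 2-fold, 2 in each direction against 10.8% and 8.15% of genes, with log2 ratios of 1.37 for Col8a1, 1.61 for Col12a1, -1.05 for Col3a1 and -2.03 for Col14a1.

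The difference of the models in Col8a1 was far smaller in the Acta2/Tagln cells than in the other fibroblast-like cells. In Acta2/Tagln cells Col8a1 stood at 2216 CPM in WB1P (2057 to 2384) and 2008 CPM in WB1P-Myc (1894 to 2128), a log2 ratio of -0.14. In Clec3b/Pi16 cells it stood at 1312 CPM in WB1P (1124 to 1523) and 303 CPM in WB1P-Myc (238 to 379), 4.34-fold higher in WB1P (log2 -2.12, -2.53 to -1.72). In cells with equal sums it stood at 1386 CPM in WB1P and 263 CPM in WB1P-Myc, 5.27-fold higher in WB1P (log2 -2.40, -3.01 to -1.83). It was the 1 member of 10 past 2-fold in either group, where 7.26% and 10.7% of genes were.

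Single cells weighed on the WB1P values. One cell gave 42 of the 173 Col8a1 UMIs of WB1P Clec3b/Pi16 cells (24.3%), and without it the level was 1050.5 CPM (878 to 1247). One cell gave 23.1% of those of the WB1P cells with equal sums, and the level without it was 1121 CPM (937 to 1331). Both stayed above the WB1P-Myc levels. A Col8a1 UMI was found in 39.3% of WB1P and 29.7% of WB1P-Myc Clec3b/Pi16 cells, and after thinning in 30.4% (18.8 to 44.1%) and 10.8% (4.8 to 20.2%). Epithelial markers summed to 296 CPM in the former and 137 CPM in the latter cells, and their part in the difference was not tested.

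The wider collagen machinery was described from 4 lists over the same subsets, with the share of all genes past 2-fold given above as the background. Of the biosynthesis and assembly list, 22 genes had enough UMIs, 2 were at least 2-fold higher in Acta2/Tagln cells and 1 in Clec3b/Pi16 cells, with a median log2 ratio of 0.36. The 2 were Loxl3, a lysyl oxidase that cross-links collagen, at 257 against 63.2 CPM (log2 2.03), and P4ha1, a prolyl hydroxylase, at 279.7 against 116 CPM (log2 1.27). The 1 was Pcolce2, an enhancer of procollagen processing, at 29.97 against 169 CPM (log2 -2.49), followed by the procollagen peptidase Adamts2 at 438 against 756 CPM (log2 -0.79), which did not pass 2-fold. Serpinh1, the collagen chaperone, stood at 1987 and 1328 CPM (log2 0.58).

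The fibril partners went further apart. Of 13 genes, 2 were at least 2-fold higher in Acta2/Tagln cells, namely the matrix glycoprotein Tnc (1720.4 against 258 CPM, log2 2.74) and the small proteoglycan Fmod (141 against 31.6 CPM, log2 2.16). The 5 that were at least 2-fold higher in Clec3b/Pi16 cells were Tnxb, Dcn, Ogn, Prelp and Lum, and the median was -0.55. Tnxb stood at 4.44 CPM in Acta2/Tagln cells, from 4 UMIs, and at 248 CPM in Clec3b/Pi16 cells (log2 -5.80, -7.71 to -4.40), and Dcn at 972 and 7385 CPM (log2 -2.93). Dcn and Lum are also on the fibroblast marker list. Postn, Bgn and Sparc had log2 ratios between -0.14 and 0.09.

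Of 7 collagen receptors, Itga1 (120 against 7.90 CPM, log2 3.92), Cspg4 (158 against 10.5 CPM, log2 3.90) and Itgb1 (1404 against 532 CPM, log2 1.40) were at least 2-fold higher in Acta2/Tagln cells. The receptor kinase Ddr2 was lower there, at 81.0 against 285 CPM (log2 -1.81), followed by Antxr1 at -0.07, and the median was 0.50. Itga1 and Itgb1 encode an integrin pair that binds collagen, and Cspg4, a proteoglycan that binds type VI collagen, is also on the pericyte list. Itga1 stood at 237 CPM in Acta2/Tagln cells with a pericyte marker of the split above and 24.2 CPM in those without.

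Of 10 breakdown genes, 2 were at least 2-fold higher in Acta2/Tagln and 3 in Clec3b/Pi16 cells, with a median of -0.24. Mmp3 (380 against 2511 CPM, log2 -2.73), Mmp2 (432 against 1233 CPM, log2 -1.51) and the inhibitor Timp2 (388 against 1028 CPM, log2 -1.40) were higher in Clec3b/Pi16 cells, and the inhibitor Timp1 (2079 against 840.5 CPM, log2 1.31) in Acta2/Tagln cells. The collagenase Mmp13 had 273 UMIs in Acta2/Tagln cells against 0 in Clec3b/Pi16 cells, a log2 ratio of at least 5.26 with the floor set at 3 counts. All 273 UMIs came from 20 WB1P cells. Over the whole fibroblast-like class Mmp13 had 473 UMIs in 32 of 214 WB1P cells (817 CPM) and 0 in 255 WB1P-Myc cells, where 3 counts would be 3.20 CPM, and it was the 1 gene of the 4 lists past 2-fold between the models (log2 at most -8.00).

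Members were also counted outside the fibroblast-like class, where few UMIs per cell were found. To set these against what RNA or doublets from 1 fibroblast source would bring, the UMIs of each member were divided by those predicted from the Col1a2 UMIs of the same cells and the member to Col1a2 ratio of fibroblast-like cells of the same model. Above 1, a class held more of the member than this scale. For nearly all genes such a ratio is above 2, since most genes are made by every class: the share was 98.8% over the epithelial-like and Schwann-like cells of WB1P-Myc, against 5 of 10 members. That count lay below the background, so the values describe the members one by one.

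**Figure D5:**
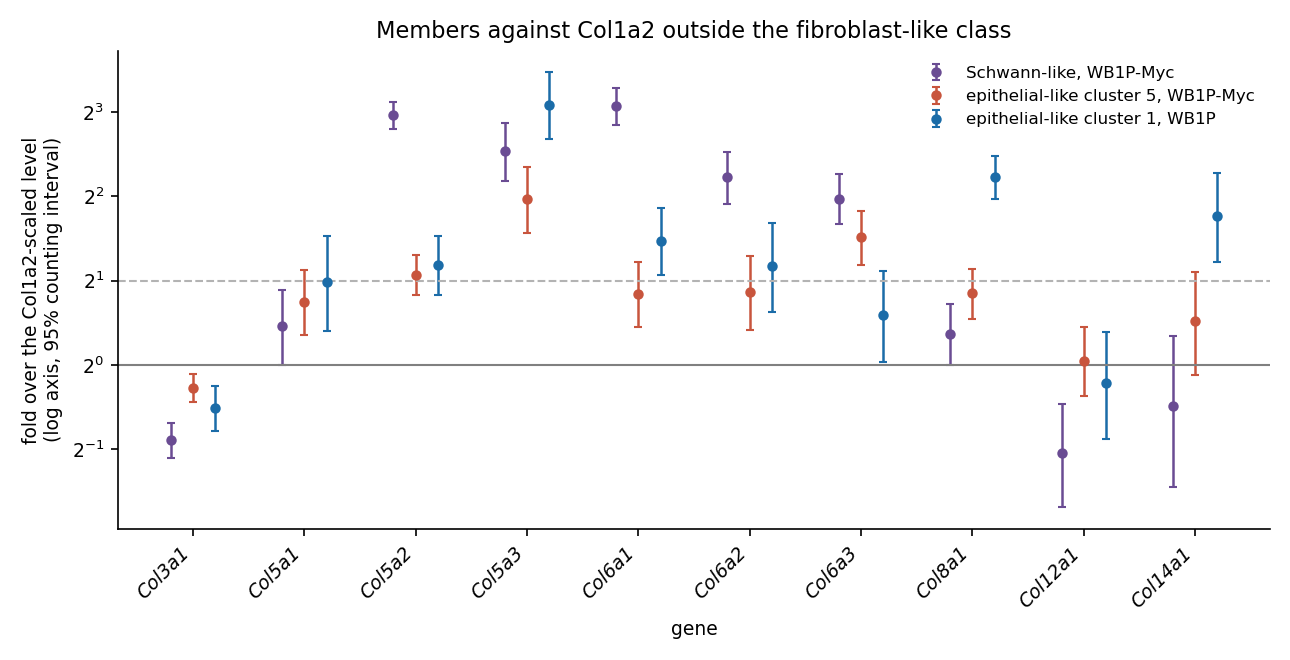
Fold of each member over its Col1a2-scaled level (log axis) in the Schwann-like cells of WB1P-Myc and the main epithelial-like cluster of each model, with 95% counting intervals as bars, a solid line at 1 and a dashed line at 2. In Schwann-like cells of WB1P-Myc the type VI chains, Col5a2 and Col5a3 lie between 3.93 and 8.39, while Col3a1, Col12a1 and Col14a1 lie below 1.

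In the 1179 Schwann-like cells of WB1P-Myc, Col6a1 had 285 UMIs, 8.39-fold over the scaled level (7.19 to 9.78), and Col5a2 had 658 UMIs, 7.79-fold over it (6.96 to 8.70). Col5a3 (5.80-fold, 4.54 to 7.34), Col6a2 (4.68-fold, 3.77 to 5.76) and Col6a3 (3.93-fold, 3.19 to 4.80) were also above. By fraction, Col6a1 lay at 8.33, 7.49, 7.95 and 9.63-fold and Col5a2 at 7.36, 10.2, 8.62 and 5.48-fold. All 5 genes were past 2-fold in all 4 fractions, and 98.3% of genes were in the pooled cells. Col3a1 (0.54, 0.47 to 0.62) and Col12a1 (0.48, 0.31 to 0.72) lay below the scale, and Col14a1 had 12 UMIs (0.72, 0.36 to 1.27). Cartilage genes were also found in these cells: the 6 cartilage markers, all detected, summed to 549 CPM in Schwann-like cells, led by Acan at 241 CPM, against 61.3 CPM in fibroblast-like cells. Col2a1, the chain of cartilage collagen, stood at 2378 CPM in the Schwann-like cells of WB1P-Myc. At a clustering resolution of 0.6, a cluster of 504 WB1P-Myc cells led by cartilage genes was set apart, and the part of such cells in these values was not tested. The member levels were low: Col5a2 stood at 139 CPM in these cells and at 1982 CPM in the fibroblast-like cells of the model, and Col6a1 at 60.3 and 797 CPM. A UMI of Col5a2 was found in 220 of the 1179 cells.

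Of the WB1P epithelial-like cells, 650 of 674 formed 1 cluster, in which Col5a3 had 84 UMIs, 8.47-fold over the scaled level (6.42 to 11.1). Col8a1 came next, with 202 UMIs in 100 cells, 101 CPM (87.2 to 115), 4.68-fold over it (3.90 to 5.60). Over all 674 cells, Col8a1 was 9.43, 3.86, 4.75 and 2.82-fold over the scale in fractions 1 to 4, the first from 6 UMIs. In the WB1P-Myc epithelial-like cells, nearly all of them in another cluster, Col8a1 stood at 33.9 CPM and 1.84-fold (1.50 to 2.26), and Col5a3, again the highest, Col6a3 and Col5a2 at 3.91, 2.85 and 2.09-fold. The background was 97.8% in WB1P and 98.0% in WB1P-Myc, against 4 and 3 of 10 members.

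Some of these cells held much Col1a2. Epithelial-like cells with at least 5 Col1a2 UMIs, 13 in WB1P and 35 in WB1P-Myc, held 35.8% and 52.2% of the member UMIs of their class, and 32 such Schwann-like cells held 15.4%. In an alternative added after the data were seen, such cells were left out. The fold over the scale rises by construction then, since Col1a2 is its denominator, and these counts are no separate support. With such cells out, 9 members in WB1P and 8 in WB1P-Myc were past 2-fold in epithelial-like cells, Col8a1 in the WB1P cluster stood at 93.4 CPM and 12.9-fold over the scale, and the Schwann-like count stayed at 5.

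In macrophage-like cells Col14a1 was the member farthest from the scale, with 40 UMIs in WB1P (25.9-fold, 16.7 to 39.6) and 33 in WB1P-Myc (14.2-fold, 9.24 to 21.2), at 60.3 and 25.6 CPM. These UMIs came from 29 and 25 cells, at most 4 from 1 cell. Over both models, 5.00% of macrophage-like cells held a Col14a1 UMI, where 3.10% of epithelial-like cells, 1.02% of Schwann-like cells and 0 of 111 endothelial-like cells did, with median depths of 1480.5, 1993, 3019 and 1635 UMIs. After thinning to 600 UMIs the shares above 0 were 1.85%, 0.995% and 0.169%. The part of free RNA in them was not tested, and they are not read as expression. In endothelial-like cells of WB1P-Myc, Col5a3 had 21 UMIs in 8 of 73 cells (17.9-fold, 10.3 to 30.04). Of the member UMIs of these cells, 68.5% lay in 2 cells with at least 5 Col1a2 UMIs, and without them Col5a3 had 8 UMIs in 71 cells, at 51.0 instead of 118 CPM. In all 73 cells Col12a1 and Col14a1 had 0 UMIs, which allows for Col12a1 up to 1.05-fold of its scaled level. In WB1P, where 38 such cells were kept, Col5a3 had 2 UMIs and Col8a1 10, in 2 cells. The 248 unnamed cells held 389.5 CPM of Col3a1 (1.21-fold, 1.08 to 1.35) and were past 2-fold for 3 of 10 members, the type VI chains, against 97.4% of genes, with 3.51-fold (2.81 to 4.35) for Col6a3. In these cells the 55 with at least 5 Col1a2 UMIs held 49.0% of the member UMIs, and without them 7 members, Col3a1 and all chains of types V and VI, were past 2-fold, which the same construction favours.

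For 9 members, the 3 genes with the most similar pattern were found by Pearson's r of log2(CPM + 10) over 14 combinations of class or subset and model with at least 20 cells, among 12218 genes. The points share libraries and depth, and the classes dominate r, so the values describe these cells only. Several members were nearest to other collagens or matrix genes. Col5a2 was nearest to Col6a2 (r = 0.986), Bgn and Col6a1, and Col5a1 was nearest to Col1a2 (r = 0.995), Thbs2 and Col1a1. Col6a2 was nearest to Col6a3 (r = 0.988), Col1a2 and Col5a2, and Col6a3 to Gpx8 (r = 0.990), Col6a2 and Col5a1. Col3a1 was nearest to Bicc1 (r = 0.991), Col1a2 and Slit3, and Col12a1 to Thbs2 (r = 0.987), Fzd1 and Gpr153.

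Col8a1 and Col14a1 had no collagen among their 3 genes. Col8a1 was nearest to Pdlim2 (r = 0.960), Bace1 and Errfi1. Col14a1 was nearest to Pla1a (r = 0.969), C3 and Pkdcc. Col6a1 was nearest to Col5a2 (r = 0.985), P4ha3 and Cdh11.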

How the data were processed

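Drop-seq UMI counts were analysed from the HiSeq2500 runs of 4 droplet fractions each of WB1P and WB1P-Myc mammary tumors, and the MiSeq runs of the same fractions served as an alternative. The authors deposited 1 table of raw UMI counts per fraction, each holding 1000 barcodes. They used dropseq-tools 1.12, and the submitters' processing notes name mm10 (the annotation used here for coordinates was GENCODE M21) and Scanpy, with no aligner given in the sources used here. The study counts 2 mice per model, and which fraction came from which mouse, or whether cells were pooled, is not stated.

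Genes found in at least 3 cells were kept, as were barcodes with 450 to 4000 genes and under 20% mitochondrial UMIs. Cells were normalised to 10000 UMIs, log-transformed and clustered with scanpy 1.11.5 (30 principal components, 20 neighbours, Leiden resolution 0.3), and clusters were named from fixed markers. Doublets were called with Scrublet but kept. UMIs were summed per class, subset, model and fraction and are given as CPM with exact Poisson intervals, shares of cells with Clopper-Pearson intervals, and log2 ratios with conditional exact binomial intervals, all at 95%. Differences between models of the subset ratios had 95% intervals from a normal approximation to the UMI counts. Ratios were computed for genes with at least 50 UMIs over both groups, a fold of 2 was used as the call, and a group at 0 was set to 3 counts. With 1 sample per model no p-value was computed. The ratio computation was tested on simulated data.

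The text names every member, the type I genes, the 2 highest and 2 lowest ratios of each gene list and the 3 genes most like each member, except that those of Col5a3 are not reported here. Serpinh1, Itgb1, Timp2, Ogn, Prelp, Lum, Postn, Bgn, Sparc, Acan and Col2a1 were named after their values were seen. The members and lists were chosen with earlier results of these data known. Gene symbols of the tables were matched to RefSeq promoter windows for 7 of 10 members.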

Additional observations from a re-analysis of the deposited data

Results flagged for a closer look

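A fraction far from the others of its model was looked for in 20 sets of 4 fractions for the level in fibroblast-like cells and in 16 sets for the ratio of the subsets. Chance flags about 1 in 20 such sets, and 2 and 2 were found. WB1P fraction 1, which held 2 fibroblast-like cells, 1 of each subset, gave 3 of them. Col5a3 was lowest there at 337 CPM, where WB1P fractions 2 to 4 stood at 418 to 425 CPM, Col6a2 was highest there at 1685 CPM, against 667 to 722 CPM, and the log2 ratio of Col3a1 between Acta2/Tagln and Clec3b/Pi16 cells was highest there at 1.89, against -1.32 to -0.84. The fourth was the log2 ratio of Col6a2 in WB1P fraction 4, at 1.26 against 0.34 and 0.41 in fractions 2 and 3. In fraction 1 it was at most 0.48, since the Acta2/Tagln cell held 0 UMIs and 3 counts were put in, and that bound entered the comparison as a value.

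Barcodes with more than 4000 genes, which entered no comparison, also held member UMIs, 461 in the 40 such barcodes of WB1P and 2126 in the 134 of WB1P-Myc. Col8a1 stood there at 141 CPM in WB1P and 65.1 CPM in WB1P-Myc, and Col3a1 at 37.6 and 149 CPM.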

How the results depend on the processing

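The 10 members above other cells (21 settings), the 2 members higher in Clec3b/Pi16 cells (24 settings) and the 0 members different between models (19 settings) gave the same count under each setting run. The 2 members higher in Acta2/Tagln cells became 1 (Col8a1, with Col12a1 at a log2 ratio of 0.76) when subclusters of the fibroblast-like cells replaced the split by gene pairs, and 3 in the MiSeq run, and ranged from 2 to 3 when 1 fraction was left out. The 5 members above the Col1a2-scaled level in WB1P-Myc became 8 at a clustering resolution of 0.6, 2 in the MiSeq run (Col5a2 and Col6a1), and 8 without other cells holding at least 5 Col1a2 UMIs, an alternative added after the data were seen that lowers the Col1a2 denominator of the scale. With 1 fraction left out they ranged from 5 to 7. Their cause was not tested. Of the single-gene ratios, 538 stayed within and 102 moved beyond their interval, and no called ratio changed sign. In the MiSeq run the uncalled ratios between models changed sign for Col5a1 (-0.28), Col5a3 (0.54), Col6a2 (0.02), Col6a3 (0.19), Col8a1 (0.91) and Col12a1 (-0.41). The fibroblast-like class of that run carried 8 endothelial markers, and their part in these signs was not tested. The uncalled subset ratios of Col5a1 and Col6a1 turned to -0.55 and -0.05 in the MiSeq run, that of Col5a1 to -0.16 with subclusters, and that of Col6a2 to -0.12 in WB1P-Myc alone and to -0.03 without WB1P fraction 4. No paired analysis was possible because the results come from no test and each model is 1 sample. The small number of endothelial-like cells (38 and 73) limited their values.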
